A study of Mus musculus with 4 samples.

Results

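The neurons described here were Fn1 subicular pyramidal neurons, a small group of excitatory nuclei picked out of the whole mouse hippocampus. They were chosen by their own transcript counts: at least 2 UMIs (unique molecular identifiers, each 1 counted transcript) of Fn1, which encodes the matrix glycoprotein fibronectin, and at least 1 UMI each of Ldb2, a cofactor of LIM-domain transcription factors, and Slc17a7, the vesicular glutamate transporter of cortical excitatory neurons. Nuclei with more than 1 UMI of the inhibitory genes Gad1 and Gad2 together, or with at least 2 detected genes of a granule cell, vessel or glial set, were left out. The rule selected 257 of 55295 filtered nuclei, 0.465% in all, with 54 and 90 nuclei in WT replicates 1 and 2 and 32 and 81 in KI replicates 1 and 2. These are called Fn1 nuclei here.

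Single-nucleus RNA was sequenced from the hippocampi of 2 wild-type (WT) and 2 heterozygous knock-in (KI) mice, with both hemispheres of a mouse in 1 library. KI mice carried 1 Cyfip2 allele with the R87C change (Cyfip2+/R87C) in the germline, on the C57BL/6N background, and WT mice were littermates without it. The animals were adults. The treatment label of KI replicate 2 reads R88C while its protocol label reads R87C, so it was kept in the KI group by its genotype label. All libraries carry the same batch label.

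The subiculum is the main output region of the hippocampal formation. It receives CA1 axons and sends axons to the entorhinal and retrosplenial cortex, the thalamus, the hypothalamus and the nucleus accumbens. Its pyramidal neurons form several transcriptional types that differ by depth, by position along the proximal to distal and dorsal to ventral axes, and by target, and Fn1 marks a set of them. The question put to the data was how these neurons vary among the libraries, and whether their RNA differed between genotypes.

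The libraries held 12555 to 15981 filtered nuclei with a median of 3987 to 4853 UMIs. Fn1 nuclei were deeper, with a median of 6915, 8840, 9912 and 8551 UMIs in WT replicates 1 and 2 and KI replicates 1 and 2, and this order of the libraries is kept for every run of 4 values below. The rule itself asks for counts. Nuclei that met the rest of it with no Fn1 UMI had medians of 6360, 7064, 8521 and 6605 UMIs. Summed over a library, Fn1 nuclei gave 419578, 884126, 330475 and 726827 UMIs, so KI replicate 1 was the shallowest sum. Libraries shared 39 to 66 barcodes in a pair, and no barcode of an Fn1 nucleus was an Fn1 nucleus in another library. Malat1, a nuclear long noncoding RNA, took 6.06% and 7.76% of the UMIs of WT Fn1 nuclei and 10.6% and 10.9% of those of KI Fn1 nuclei. All levels below are CPM, a gene's share of the UMIs summed over the nuclei concerned, on a scale where the 6.06% of Malat1 is 60623 CPM, so a higher Malat1 lowers the CPM of every other gene.

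The regional identity of the nuclei was checked with genes that the rule did not use. Because the nuclei were selected on part of the same transcriptome, these levels are a description. Tshz2, a zinc-finger transcription factor, stood at 1103, 1284, 814 and 1698 CPM in Fn1 nuclei against 91.7, 216, 154 and 306 CPM in the other nuclei of each library. It does not set the group apart from excitatory nuclei with Rai14 and Cwh43, where it stood at 2350, 1209, 1170 and 1289 CPM. Ndst4, a heparan sulfate sulfotransferase, stood at 877, 768, 487 and 585 CPM against 182, 146, 70.9 and 82.1 CPM, and at 75.8, 12.8, 22.4 and 13.4 CPM in the Rai14 and Cwh43 nuclei. Of 15 regional genes of the subiculum, 8 were above the other nuclei in all 4 libraries, among them Nts (neurotensin), Bcl6, Etv1 and Cntn6, and 3 were below in all 4, Gpc3 and Rorb among them. Fras1, a matrix protein given as a marker of these neurons, was present in 88.9%, 73.3%, 84.4% and 69.1% of the nuclei. Klhl1, an actin-binding kelch protein given as another marker, had a UMI in 29.6%, 14.4%, 18.8% and 21.0% of them, at 107, 37.3, 30.3 and 42.7 CPM against 20.1, 21.2, 25.5 and 17.0 CPM elsewhere. At this level and depth, nuclei without a Klhl1 UMI cannot be read as lacking it. In the Rai14 and Cwh43 nuclei Klhl1 stood at 364, 80.7, 224 and 80.5 CPM, above Fn1 nuclei in each library, and Cntn6 at 531, 272, 462 and 366 CPM against 341, 450, 336 and 238 CPM in Fn1 nuclei.

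Such shares were set beside those in nuclei of other cell types, and the part of free RNA in them was not tested. Fn1 had a UMI in 1.17% to 2.53% of oligodendrocyte nuclei (median depth 1696 to 2616 UMIs) and at least 2 UMIs in 0.150% to 0.524% of them. In granule cell nuclei (median depth 4959 to 5891 UMIs) Fn1 reached 2 UMIs in 0.524% to 0.891%. Klhl1 had a UMI in 2.50% to 3.53% of granule cell nuclei, below its share in every library of Fn1 nuclei. Fras1 had a UMI in 26.1%, 25.5%, 50.1% and 45.8% of granule cell nuclei, also below its share in Fn1 nuclei of each library, with the higher values in KI.

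**Figure D1:**
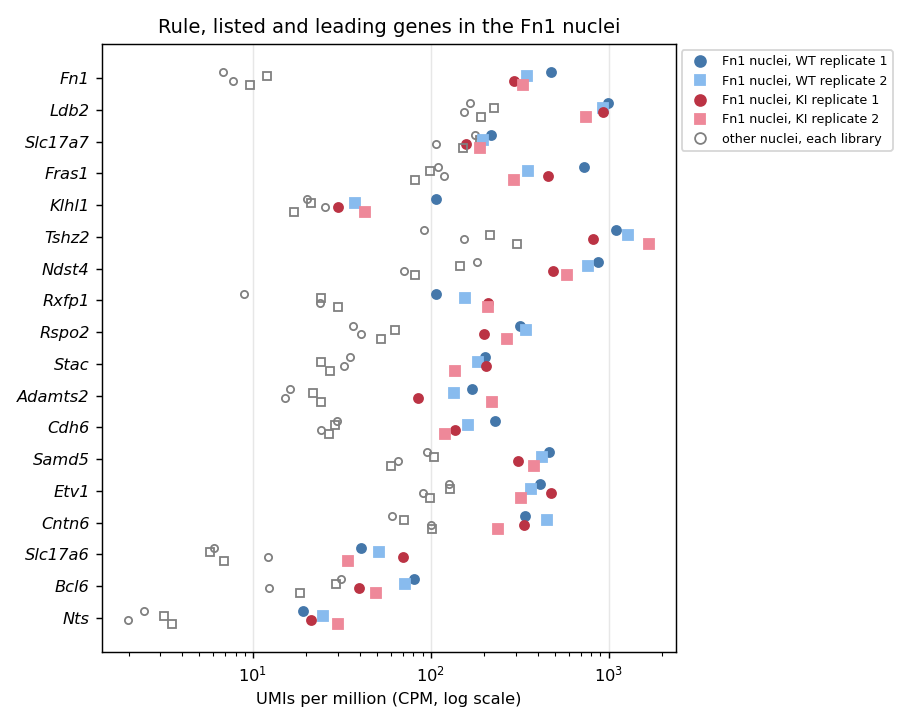
CPM on a log axis of the rule genes (Fn1, Ldb2, Slc17a7), the markers Fras1 and Klhl1 and other leading or regional genes, with filled symbols for Fn1 nuclei of each library and open grey symbols for all other filtered nuclei of the same library. Tshz2, Ndst4 and Rxfp1 lie above the other nuclei in all 4 libraries, while the Klhl1 symbols of KI replicate 1 lie close together (30.3 against 25.5 CPM).

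The 20 genes ranked highest by their lowest ratio to the other nuclei over the 4 libraries were led by Fn1 itself, at 474, 349, 294 and 332 CPM. Behind it came 3 long intergenic noncoding RNAs, Gm42705, Gm42707 and Gm6260, which lie within 284 kb of chromosome 3 (GRCm38; Gm6260 at chr3:143670892-143712210, Gm42705 at chr3:143743377-143827012 and Gm42707 at chr3:143878393-143954774). Averaged over libraries, they were 18.2 (Gm6260), 16.2 (Gm42705) and 17.4 (Gm42707) times as high as in the other nuclei. Among the other leading genes were Rxfp1, a relaxin receptor, at 107, 156, 209 and 209 CPM, Adamts2, a procollagen protease, at 172, 136, 84.7 and 220 CPM, and Rspo2, a secreted enhancer of Wnt signals, at 317, 342, 200 and 270 CPM. Slc17a6, a second vesicular glutamate transporter that is sparse in CA1, was present in 22.2% to 43.8% of Fn1 nuclei at 40.5, 50.9, 69.6 and 34.4 CPM against 5.76 to 12.1 CPM elsewhere.

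The threshold of 2 Fn1 UMIs cut through a range of counts. Nuclei that met the rest of the rule with exactly 1 Fn1 UMI numbered 50, 88, 62 and 112. In these nuclei Tshz2 stood at 569, 560, 683 and 1309 CPM, against 728, 1472, 821 and 1732 CPM with exactly 2 UMIs and 141, 331, 209 and 509 CPM with none. Ndst4 stood at 435, 287, 379 and 341 CPM with 1 UMI and 638, 559, 365 and 552 CPM with 2. It was thus higher with exactly 2 UMIs than with 1 in 3 libraries and not in KI replicate 1. There it stood at 568 CPM with at least 3 UMIs. Of the nuclei with any Fn1, 51.9% and 50.6% in WT and 34.0% and 42.0% in KI reached the threshold. Nuclei just under the threshold carried Tshz2 at a lower level than those just above it in all 4 libraries.

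Most markers of other cell types were low. CA1 markers were mixed: Fibcd1 stood at 7.15, 7.92, 0 and 2.75 CPM, whereas Mpped1 stood at 212, 216, 172 and 125 CPM. Of the 5 CA1 markers, Mpped1 and Pou3f1 were above the other nuclei in all 4 libraries, and Fibcd1 and Man1a were below. Their sum was not low, at 453, 431, 336 and 336 CPM against 375, 365, 356 and 302 CPM elsewhere. The 5 CA2, 5 CA3, 6 granule cell, 5 GABAergic, 5 astrocyte, 6 oligodendrocyte, 4 oligodendrocyte precursor and 5 microglial markers summed to less in Fn1 nuclei than in the other nuclei of each library. None of these lists had a member above the other nuclei in all 4 libraries. The granule cell, GABAergic, astrocyte, oligodendrocyte and microglial lists hold genes that the rule kept out, so their low sums were in part fixed by it. Slco1a4 of the 4 endothelial, Col1a1 of the 5 mural and fibroblast and Lhx1 of the 4 Cajal-Retzius markers were at 0 in all libraries, and Col1a1 entered the rule. The endothelial markers summed to 2.38, 5.66, 3.03 and 2.75 CPM against 9.07, 10.2, 11.5 and 12.6 CPM elsewhere. The mural and fibroblast markers were not lower throughout, at 28.6, 22.6, 33.3 and 23.4 CPM against 28.7, 37.4, 31.2 and 37.0 CPM, most of it Dcn. The 3 upper layer cortical markers summed to 66.7 to 109 CPM against 174 to 213 CPM elsewhere, and Rai14 and Cwh43, which mark another retrohippocampal group, to 24.2 to 47.5 CPM against 11.4 to 25.7 CPM. The Cajal-Retzius markers summed to 28.6, 31.7, 133 and 34.4 CPM, so KI replicate 1 stood above the others. The 3 deep layer cortical markers were below the other nuclei of each library but not low, at 636, 714, 424 and 421 CPM, most of it Hs3st4, a heparan sulfate sulfotransferase, at 546, 564, 342 and 321 CPM. The sum of CA3 markers was 71.5, 267, 90.8 and 282 CPM, and it was mostly Trps1, at 47.7, 233, 78.7 and 272 CPM. A doublet score above 0.25 was found in 13 Fn1 nuclei (2, 8, 1 and 2), the most in WT replicate 2.

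Clustering of the Fn1 nuclei alone, without the 563 genes that differed between genotypes at an unadjusted p below 0.05, gave 5 subclusters. They were left unnamed and are given by their leading genes, as a description. Subcluster 1 (101 nuclei) was led by Mkx, Trabd2b, Syt2, Skint1 and Rxfp1, and held Tshz2 at 1533 and Ndst4 at 957 CPM. Subcluster 2 (72 nuclei) was led by Angpt1, Sema3d, Npsr1 and Col23a1, with Tshz2 at 1397 and Ndst4 at 854 CPM. Both thus carried Tshz2 and Ndst4 together, and they made up 173 of the 257 nuclei. The marker Klhl1 was lower in them, at 28.0 and 49.2 CPM, than in subclusters 4 and 5 (151 and 98.1 CPM).

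The other 3 subclusters departed from that profile of Tshz2 and Ndst4. Subcluster 3 (32 nuclei) had Tshz2 at 1394 CPM but Ndst4 at 205 and Fras1 at 87.0 CPM, and was led by Trps1, Car10, Fstl4 and Trhde. Subcluster 4 (32 nuclei) had Tshz2 at only 90.4 CPM, with Klhl1 at 151 CPM, and was led by Tmem163, Adra1a, Robo1 and Kirrel3. Subcluster 5 (20 nuclei) had Ndst4 at 28.0 CPM and was led by Sntb1, Cntnap4, Il1rapl2, Rorb and Kcnip1. Hs3st4 stood at 2796 CPM in subcluster 5 and 1197 CPM in subcluster 4 against 35.3 and 84.6 CPM in subclusters 1 and 2. The label of subicular neurons therefore rests on different genes in different subclusters, and for subclusters 3 to 5 at least 1 of the leading regional genes was low.

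The subclusters were unevenly spread over the libraries. Subcluster 1 held 27.8%, 31.1%, 43.8% and 54.3% of the Fn1 nuclei and subcluster 2 held 40.7%, 30.0%, 21.9% and 19.8%. In both, the WT and KI values did not overlap, with 1 higher and the other lower in KI. These splits were not tested, and with 2 mice against 2 an absence of overlap is common. The shares are also tied, because together they make up all Fn1 nuclei of a library. KI replicate 1 gave 14 and 7 nuclei to subclusters 1 and 2. Subcluster 3 held 3.70%, 18.9%, 6.25% and 13.6%, subcluster 4 held 22.2%, 8.89%, 25.0% and 4.94%, and subcluster 5 held 5.56%, 11.1%, 3.13% and 7.41%. For subclusters 3 to 5 the genotypes overlapped and replicate 1 stood apart from replicate 2 in each genotype. Some shares rest on very few nuclei: 2 in subcluster 3 of WT replicate 1 and of KI replicate 1, and 1 in subcluster 5 of KI replicate 1. A gene that differs between subclusters therefore moves with this mix, and from the library sums alone a changed mix and a changed level per nucleus cannot be told apart. Levels within subclusters are given below for the genes concerned.

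**Figure D2:**
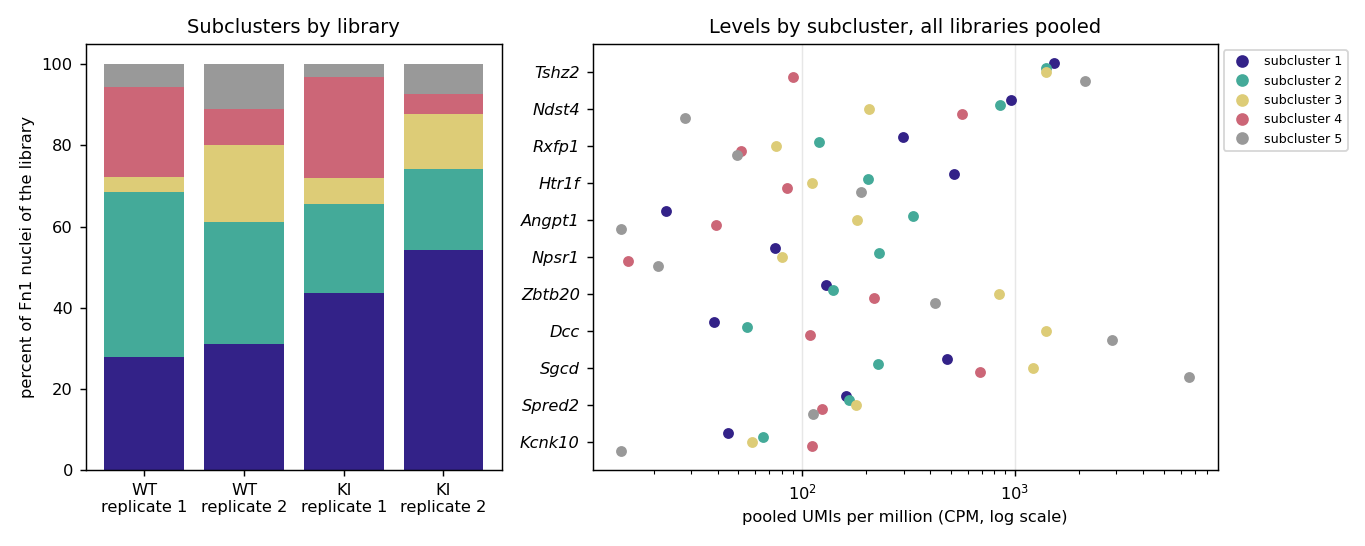
Left, the percent of each library's Fn1 nuclei in each of 5 subclusters, as bars stacked from 0; right, the CPM on a log axis of 11 genes in each subcluster, all libraries pooled. Subcluster 1 takes 27.8% and 31.1% of WT and 43.8% and 54.3% of KI nuclei, and Dcc and Sgcd are highest in subcluster 5, Angpt1 and Npsr1 in subcluster 2.

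Fn1 nuclei made up 0.338% (exact 95% interval 0.254% to 0.441%) and 0.684% (0.550% to 0.840%) of the filtered nuclei of WT replicates 1 and 2, and 0.255% (0.174% to 0.360%) and 0.596% (0.473% to 0.740%) of those of KI replicates 1 and 2. The intervals cover counting error only. The means were 0.511% ± 0.245 in WT and 0.425% ± 0.241 in KI (SD, n = 2), and the replicates of a genotype differed more than the genotypes did. An exact two-sided permutation test gave p = 0.667, and with 2 mice against 2 it cannot go below 0.333. The log2 ratio of the means, −0.26, took the other sign without WT replicate 2 (0.33) and without KI replicate 1 (0.22), and with an Fn1 threshold of 1 UMI (0.11). It was −0.56 with a threshold of 3 UMIs, and −0.09 for shares of excitatory nuclei (0.739%, 1.32%, 0.685% and 1.25%). With nuclei thinned to 2000 UMIs, and the 3154, 1970, 2600 and 1715 shallower nuclei left out, 14, 7, 5 and 6 nuclei met the rule. These were 0.109%, 0.0625%, 0.0502% and 0.0505% of the nuclei kept, with a log2 ratio of −0.77 and no overlap between genotypes (exact two-sided permutation p = 0.333, the smallest possible).

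For the effect of genotype on gene levels, UMIs were summed per mouse and compared with edgeR's quasi-likelihood test, so that the mouse was the replicate (n = 2 per genotype, and for every adjusted p below unless a library was left out). No gene of 7289 tested passed an adjusted p of 0.05 (0%), and the smallest adjusted p was 0.194. Without adjustment, 563 genes had a p below 0.05, 282 higher in KI (3.87%) and 281 lower (3.86%). DESeq2, run on 19153 genes without a filter on low counts, also called 0 genes, with 140 at an unadjusted p below 0.05. The result leaned on single libraries: edgeR called 77 genes without KI replicate 1, 100 without KI replicate 2, 8 without WT replicate 1 and 4 without WT replicate 2, with the lone mouse assumed to vary like the others. As a check for a library deposited more than once, the sums of replicates were compared, and the chi-square per degree of freedom was 1.74 for WT and 2.46 for KI.

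The genes nearest to the threshold are given next. They were taken by their unadjusted p among genes of at least 20 CPM, 8 in each direction, and none of them passed the adjusted test (edgeR adjusted p 0.194 to 0.367). CPM did not overlap between genotypes for 14.6% of all tested genes in the direction of higher in KI and for 25.7% in the direction of lower, and for 19.9% and 20.02% when CPM was rescaled by edgeR's TMM factors. Absence of overlap alone was thus common among all genes.

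Among the 8 genes with higher values in KI, Malat1 had the smallest p, at 60623, 77622, 105848 and 109190 CPM (log2 fold change 0.72 ± 0.12 SE, edgeR adjusted p = 0.194). Its level in the other nuclei differed as well, at 89101, 87209, 137148 and 121385 CPM, so it was not a feature of Fn1 nuclei alone. Sorcs1, a sorting receptor of the sortilin family, stood at 267, 266, 514 and 512 CPM in Fn1 nuclei (1.03 ± 0.19, edgeR adjusted p = 0.367) and at 154, 126, 338 and 348 CPM in the other nuclei. The replicates of each genotype were close together for Sorcs1, and both KI values were above both WT values. A230006K03Rik, a long noncoding RNA of chromosome 7, stood at 360, 372, 732 and 561 CPM, again beside higher KI values in the other nuclei (228, 264, 462 and 459 CPM).

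Sgcz, which encodes zeta-sarcoglycan of the dystrophin complex, stood at 1463, 1476, 2154 and 2558 CPM (0.77 ± 0.16), and at 451, 728, 853 and 929 CPM in the other nuclei. Htr1f, a serotonin receptor coupled to inhibition of adenylyl cyclase, stood at 198, 231, 375 and 400 CPM (0.93 ± 0.20), whereas in the other nuclei it stood at 110, 108, 62.8 and 102 CPM. Htr1f was also a gene of the subcluster that held more of the KI nuclei, at 516 CPM in subcluster 1 against 146 CPM in the rest of the Fn1 nuclei. Within subcluster 1 its values were 461, 385, 740 and 551 CPM, and within subcluster 2 they were 160, 125, 174 and 413 CPM, without overlap in either, the subcluster 2 value of KI replicate 1 resting on 11 UMIs. The genotypes overlapped in subclusters 3 and 4, and in subcluster 5 the KI values were the lower ones, at 355, 247, 215 and 57.3 CPM on 6, 17, 1 and 3 UMIs. Atg2a, a lipid transfer protein of autophagy, rested on few UMIs (3, 7, 11 and 29) at 7.15, 7.92, 33.3 and 39.9 CPM. Atg2a lies 439 kb from Malat1 on chromosome 19. Tek, the angiopoietin receptor, rested on 6, 10, 15 and 30 UMIs, and Gm43190, a noncoding RNA inside an intron of another gene, on 4, 9, 15 and 25. Both also had higher KI values in the other nuclei (Tek at 23.3, 26.7, 37.6 and 54.0 CPM).

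Among the 8 genes with lower values in KI, Zfp804b, a zinc-finger protein, stood at 114, 83.7, 12.1 and 23.4 CPM (−2.22 ± 0.36, edgeR adjusted p = 0.194). Most of its UMIs came from subclusters 3 and 4, where its pooled level was 176 and 157 CPM against 6.22 CPM in subcluster 1. Single libraries carried them, at 0, 257, 225 and 55.0 CPM in subcluster 3 and 388, 82.9, 0 and 0 CPM in subcluster 4. In the other nuclei Zfp804b stood at 264, 249, 268 and 205 CPM. Kcnk10, a 2-pore potassium channel that sets the resting potential, stood at 107, 80.3, 33.3 and 16.5 CPM (−1.94 ± 0.37), and at 64.6, 67.9, 33.7 and 40.2 CPM in the other nuclei. Within the large subclusters Kcnk10 stood at 88.7, 71.2, 27.2 and 17.7 CPM (subcluster 1) and 76.6, 98.7, 31.7 and 9.19 CPM (subcluster 2). These values rest on few UMIs, 10, 22, 4 and 7 in subcluster 1 and 11, 19, 2 and 1 in subcluster 2. Spred2, an inhibitor of the Ras and MAP kinase pathway, stood at 215, 200, 90.8 and 99.1 CPM (−1.03 ± 0.22), and at 275, 233, 88.3 and 96.1 CPM in subcluster 1. In subcluster 2 Spred2 stood at 230, 187, 79.1 and 91.9 CPM, so that KI values were lower in both. Spred2 was also lower in the other nuclei, at 175, 166, 94.3 and 102 CPM.

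Dcc, the netrin receptor, stood at 355, 868, 66.6 and 208 CPM (−2.001 ± 0.44), and its replicates differed by over 2 times in each genotype. The fold change of Dcc was −0.60 with equal numbers of nuclei drawn per library, −1.20 without WT replicate 2 and −3.13 without KI replicate 2. In the other nuclei Dcc stood at 1180, 1202, 591 and 681 CPM. Pooled over libraries, Dcc reached 2866 CPM in subcluster 5 and 1399 CPM in subcluster 3 against 38.4 CPM in subcluster 1. Within subcluster 3 it stood at 1630, 1907, 282 and 542 CPM, and within subcluster 5 at 4321, 3705, 2582 and 1318 CPM, although single libraries had as few as 1 or 2 nuclei there. Zbtb20, a transcriptional repressor that helps to set hippocampal identity, stood at 312, 442, 78.7 and 176 CPM (−1.42 ± 0.31) and was also highest in subcluster 3, at 841 CPM. The fold change of Zbtb20 was −0.71 with the 13 nuclei of high doublet score removed, 8 of which were in WT replicate 2, and −2.18 without KI replicate 2. It is far more abundant outside the Fn1 group, at 2547, 2170, 1763 and 1658 CPM. Angpt1, a ligand of the Tek receptor, stood at 164, 153, 66.6 and 74.3 CPM (−1.06 ± 0.24) and belonged to subcluster 2, where it stood at 425, 343, 285 and 211 CPM. Subcluster 2 was the one that held fewer of the KI nuclei. Pcsk1, a prohormone convertase, rested on 20, 30, 3 and 5 UMIs, and Gm2115 stood at 250, 184, 54.5 and 103 CPM. Both had lower KI values in the other nuclei, at 20.6, 26.5, 9.97 and 9.86 CPM for Pcsk1 and 91.7, 72.3, 39.1 and 48.2 CPM for Gm2115.

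**Figure D3:**
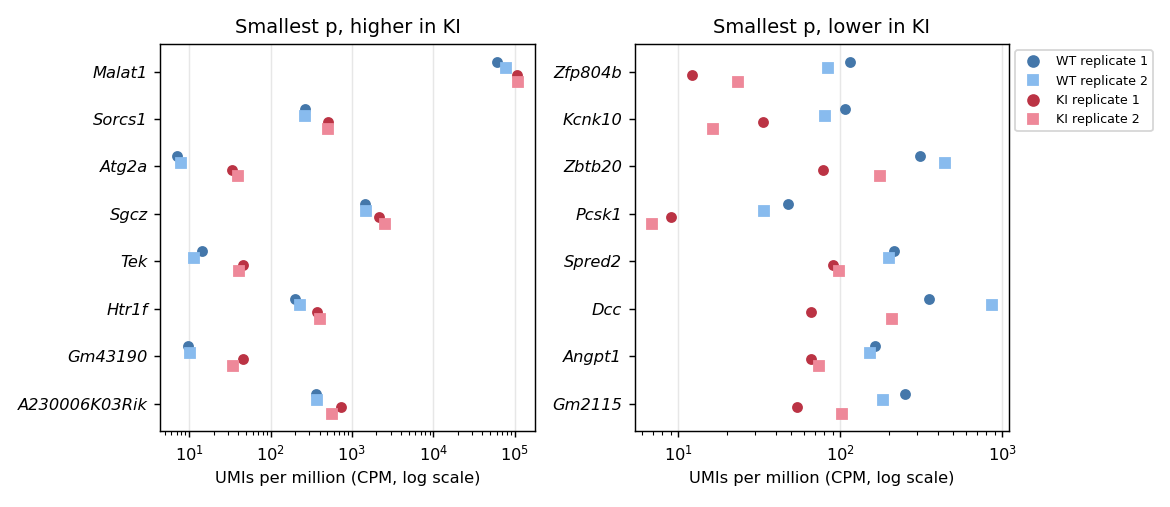
CPM on a log axis of the 16 genes with the smallest unadjusted p and at least 20 CPM, for each library (blue WT, red KI; circles replicate 1, squares replicate 2). In all 16 the KI symbols do not overlap the WT symbols, and the edgeR adjusted p lay between 0.194 and 0.367.

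A fit restricted to the 173 nuclei of subclusters 1 and 2 was added after the subclusters had been seen (37, 55, 21 and 60 nuclei). It called 2 of 5580 genes, Malat1 and Sgcz, both higher in KI (edgeR adjusted p = 0.00745 for each). Sgcz stood there at 1626, 1682, 2685 and 3066 CPM (log2 fold change 0.89 ± 0.15 SE). Subcluster 1 gave 15, 28, 14 and 44 of these nuclei, and both genes were higher in it than in subcluster 2 (Malat1 at 105723 against 68493 CPM, Sgcz at 2701 against 1509 CPM), so the mix still entered this fit. Within subcluster 1 Sgcz stood at 1968, 1828, 3070 and 3456 CPM, and within subcluster 2 at 1357, 1449, 1789 and 1654 CPM, without overlap in either. Spred2 (−1.24), Kcnk10 (−1.94), Htr1f (1.002), Gm2115 (−1.21) and A230006K03Rik (0.96) kept values near those of the whole group with edgeR adjusted p from 0.0552 to 0.0817. Zbtb20 moved to −0.69 and Dcc to −1.67. Zfp804b and Pcsk1 were too low there to be tested.

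Lists of genes by function gave no gene past the adjusted test, and each is given by its counts beside those of all genes (median log2 fold change 0.01; 282 higher and 281 lower of 7289 at an unadjusted p below 0.05). Of 30 activity-induced genes, which neurons switch on within minutes to hours of strong firing, 12 were abundant enough to be tested. None was higher and 5 were lower at an unadjusted p below 0.05, 10 of the 12 fold changes were negative and the median was −0.71. Homer1, a synaptic scaffold, stood at 300.3, 258, 115 and 160 CPM (−0.90 ± 0.23, edgeR adjusted p = 0.408), and Arc, a regulator of AMPA receptor endocytosis, at 21.5, 20.4, 3.03 and 2.75 CPM, on 9, 18, 1 and 2 UMIs. The other members were Pcsk1, the AP-1 factor Fosl2 and Bdnf, the neurotrophin. Fos, Egr1 and Npas4 were too low to be tested. Homer1 and Arc were lower in the other nuclei of KI mice too (Homer1 at 197, 193, 104 and 108 CPM; Arc at 8.78, 10.1, 1.91 and 1.98 CPM). Bdnf differed from that: it stood at 23.8, 41.8, 12.1 and 11.0 CPM in Fn1 nuclei and at 47.1, 45.0, 58.7 and 62.1 CPM in the other nuclei, with an edgeR adjusted p of 0.237 for the difference from CA1-rule nuclei (defined below). Bdnf was singled out after its values had been seen.

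Of 20 glutamate receptor genes tested, 1 was higher and 2 lower at an unadjusted p below 0.05, with a median of −0.12, and 3 were higher and 11 lower without overlap (14.6% and 25.7% over all genes tested). The NMDA receptor subunit Grin1 stood at 298, 359, 511 and 410.0 CPM and the kainate receptor subunit Grik4 at 57.2, 119, 33.3 and 41.3 CPM. Of the abundant members, the AMPA receptor subunit Gria2 stood at 2538, 2605, 3211 and 2757 CPM (edgeR adjusted p = 0.683), and the metabotropic receptor Grm5, at 4247, 4195, 3156 and 4311 CPM, overlapped between genotypes. Of 12 GABA-A receptor and chloride transporter genes, 2 were higher and 0 lower, with a median of 0.26, 9 positive fold changes, and 6 genes higher and 2 lower without overlap, to be read against the same shares over all genes. The 2 were Gabra3 (81.0, 89.4, 166 and 102 CPM) and Gabra5 (90.6, 75.8, 139 and 102 CPM). In the list of 11 nuclear long noncoding RNAs, 9 were tested, with 2 higher (Malat1 and Meg3) and a median of 0.25.

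Among 22 sodium, calcium and HCN channel genes, 2 were higher, among them the calcium channel subunit Cacna2d2 (23.8, 19.2, 51.4 and 37.1 CPM), and the median was 0.02. Of 31 potassium channel genes, 1 was lower, Kcnmb4, with a median of −0.09. That list did not hold Kcnk10, the potassium channel gene named above with lower values in KI. Of 40 axon guidance and adhesion genes, 0 were higher and 4 lower, with a median of −0.21 and 28 negative fold changes. These 4 were Dcc, Sema3d (54.8, 39.6, 18.2 and 15.1 CPM), Sema5a (42.9, 44.1, 9.08 and 16.5 CPM) and Ephb1 (57.2, 48.6, 24.2 and 23.4 CPM). Sema3d is a leading gene of subcluster 2, at 88.5 CPM against 16.2 CPM in the other Fn1 nuclei.

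Of 15 tested genes for neuropeptides, granins and their processing enzymes, Npy and Scg2 were higher and Pcsk1 lower at an unadjusted p below 0.05, with a median of 0.07. Npy rested on 3, 4, 9 and 13 UMIs. Of 12 tested fibronectin receptor and matrix genes, only the collagen gene Col11a1 was below that p, at 4.77, 12.4, 39.3 and 23.4 CPM, and the median was −0.04. Of 9 tested regional genes of the subiculum, Bcl6 (81.0, 71.3, 39.3 and 49.5 CPM) and Ndst4 were lower, with a median of −0.39, and both had lower values in the other nuclei of KI mice too (Bcl6 at 31.2, 29.2, 12.3 and 18.4 CPM). Of 20 oxidative phosphorylation genes 1 was higher, Sdha, and 10 fold changes were positive and 10 negative. The 14 tested genes of the WAVE complex, in which CYFIP2 sits, and of the FMRP partners held none below that p, with a median of −0.11.

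**Figure D4:**
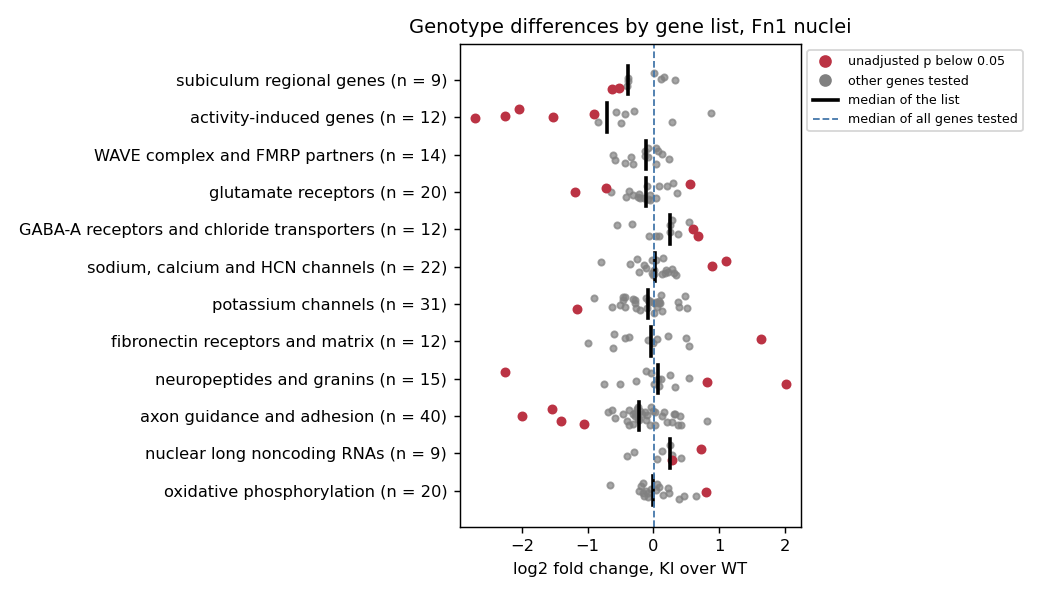
Log2 fold change (KI over WT) of each tested gene in 12 lists, with red points for an unadjusted p below 0.05, black bars for the list's median and a dashed line for the median of all genes tested (0.01). The activity-induced genes have the lowest median (−0.71), and no gene passed the adjusted test.

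Cyfip2 itself stood at 226, 189, 176 and 241 CPM (log2 fold change 0.12 ± 0.23 SE, edgeR adjusted p = 0.933), and the sign turned without WT replicate 2 or KI replicate 2. The counts join both alleles and do not read the R87C change, so they do not test the genotype labels. Its partners Wasf1 (164, 176, 84.7 and 144 CPM), Nckap1 (193, 208, 245 and 155 CPM) and Abi2 (169, 204, 206 and 164 CPM) had edgeR adjusted p from 0.732 to 0.986. Of the 3, Wasf1 alone did not overlap between genotypes.

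To ask whether genotype acted on Fn1 nuclei as on their neighbours, the difference of the genotype effect was tested against CA1-rule nuclei, excitatory nuclei with Fibcd1, with Mpped1 or Wfs1, and with no Fn1 (330, 373, 142 and 159 nuclei). Both groups came from the same 4 mice, and the library was kept as a block. Of 10832 genes, 5 differed at an adjusted p below 0.05 (0.0462%), with 611 at an unadjusted p below 0.05. In the CA1-rule nuclei alone, with more nuclei, 407 of 11459 genes passed (3.55%), 260 higher and 147 lower. Fibcd1 defines that group and stood at 21.2, 21.0, 8.82 and 9.45 CPM outside the Fn1 nuclei, so the CA1-rule nuclei of KI mice were chosen on a gene that was lower there.

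Of the 5 genes, Htr1f, Tmem132d and Gm30382 had a positive fold change in Fn1 nuclei and a negative one in CA1-rule nuclei. None of the 3 passed within Fn1 nuclei, and within CA1-rule nuclei Gm30382 alone did (edgeR adjusted p = 0.0142, against 0.137 for Htr1f and 0.0505 for Tmem132d). Htr1f stood at 171, 162, 72.0 and 138 CPM in CA1-rule nuclei, against the 198, 231, 375 and 400 CPM of Fn1 nuclei (difference 1.49 ± 0.25 SE, edgeR adjusted p = 0.0349). Tmem132d, a membrane protein of neurons, stood at 367, 329, 375 and 648 CPM in Fn1 nuclei and 92.7, 124, 53.8 and 71.8 CPM in CA1-rule nuclei (1.32 ± 0.24, edgeR adjusted p = 0.0483). Gm30382, a long intergenic noncoding RNA, stood at 322, 256, 339 and 373 CPM and at 214, 186, 89.4 and 127 CPM (1.17 ± 0.21, edgeR adjusted p = 0.0483). The fold changes were 0.66 ± 0.24 in Fn1 nuclei and −0.69 ± 0.19 in CA1-rule nuclei for Tmem132d, and 0.40 ± 0.21 and −0.79 ± 0.16 for Gm30382. The call for Tmem132d was also lost without WT replicate 2 (difference 1.03, edgeR adjusted p = 0.216) and without KI replicate 2 (1.07, edgeR adjusted p = 0.566). The call for Gm30382 was also lost, at differences close to that of all libraries, without WT replicate 2 (1.14, edgeR adjusted p = 0.0740), without KI replicate 2 (1.34, edgeR adjusted p = 0.0798) and with doublets removed (1.09, edgeR adjusted p = 0.0525).

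Zbtb20 and Sgcd went the other way. Zbtb20 stood at 2226, 1868, 2257 and 2191 CPM in CA1-rule nuclei, close to level, with lower values in KI Fn1 nuclei (difference −1.67 ± 0.29, edgeR adjusted p = 0.0392). With doublets removed, the difference for Zbtb20 was −0.96 and did not pass (edgeR adjusted p = 0.284). Sgcd, which encodes delta-sarcoglycan, stood at 758, 1370, 384 and 813 CPM in Fn1 nuclei, where the genotypes overlapped, and at 576, 681, 796 and 1086 CPM in CA1-rule nuclei (−1.44 ± 0.23, edgeR adjusted p = 0.0349). In Fn1 nuclei Sgcd was concentrated in subcluster 5, at 6594 CPM against 479 CPM in subcluster 1, and subcluster 5 held 3, 10, 1 and 6 nuclei. With subclusters 1 and 2 only, the difference was −0.97 for Sgcd (edgeR adjusted p = 0.0192) and −0.92 for Zbtb20 (edgeR adjusted p = 0.202). Sgcd (chr11:46896253-47988969, GRCm38) lies 583 kb from Cyfip2 (chr11:46193850-46312859), on the chromosome that carries the edited allele. The number called was 18 without WT replicate 1, 25 without WT replicate 2, 2 without KI replicate 1 and 8 without KI replicate 2, and none of the 5 stayed past the threshold without KI replicate 1.

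**Figure D5:**
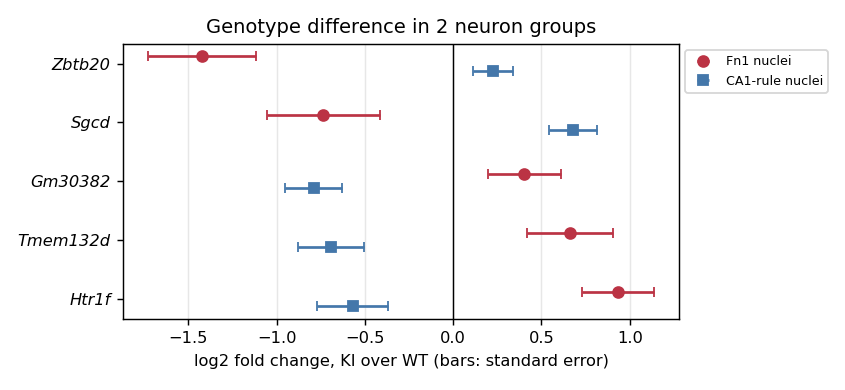
Log2 fold change (KI over WT) with its standard error for the 5 genes whose genotype effect differed between Fn1 nuclei (circles) and CA1-rule nuclei (squares) at an edgeR adjusted p below 0.05. The 2 groups lie on opposite sides of 0 for each gene, for example 0.93 against −0.57 for Htr1f and −0.74 against 0.68 for Sgcd.

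Against a second retrohippocampal group, excitatory nuclei with both Rai14 and Cwh43 and no Fn1 (16, 73, 33 and 44 nuclei), 0 of 6807 genes differed in the genotype effect (0%; smallest edgeR adjusted p = 0.397), with 252 at an unadjusted p below 0.05. WT replicate 1 gave only 16 nuclei there, and the number called was 18 without it, 9 without WT replicate 2, 1 without KI replicate 1 and 0 without KI replicate 2. For Htr1f that group stood at 364, 470, 229 and 389 CPM (difference 1.39 ± 0.34 SE), and for Zbtb20 at 857, 220, 143 and 339 CPM (difference −0.67). Neither gene passed the adjusted test. Sgcd stood at 3495, 3108, 2386 and 2145 CPM in Rai14-Cwh43 nuclei, lower in KI without overlap. Its fold change was −0.51 there and −0.74 in Fn1 nuclei, so a lower KI value was not particular to Fn1 nuclei. The difference for Sgcd (−0.23 ± 0.44 SE) did not pass the adjusted test. The gene with the smallest p was Zfp804b, at 22.7, 33.0, 71.7 and 63.8 CPM in Rai14-Cwh43 nuclei against 114, 83.7, 12.1 and 23.4 CPM in Fn1 nuclei (difference −3.30 ± 0.54 SE, edgeR adjusted p = 0.397).

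Apod and Ptgds, lipid carriers made by glia and meningeal cells, also had higher values in the KI sums of Fn1 nuclei, at 52.4, 18.1, 203 and 68.8 CPM and at 62.0, 56.6, 145 and 109 CPM. Neither passed the adjusted test (edgeR adjusted p = 0.454 for Apod and 0.367 for Ptgds). In the other nuclei they stood at 82.7, 47.9, 549 and 135 CPM (Apod) and 180, 144, 444 and 334 CPM (Ptgds), higher than in Fn1 nuclei in every library. The part of free RNA in these values was not tested. Gfap, an astrocyte filament, stood at 4.77, 1.13, 0 and 4.13 CPM in Fn1 nuclei.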

How the data were processed

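Nuclei from the hippocampi of 2 WT and 2 KI mice were profiled with 3' droplet libraries, 1 per mouse. The deposited matrices hold UMI counts per gene and barcode, which the authors made with Cell Ranger 7.0.1 on mm10; which gene models were used, and whether intronic reads counted, is not given in the sources used here. Groups came from the genotype labels. Of 55640 barcodes, 55295 passed a minimum of 500 genes and a limit of 5% mitochondrial UMIs, and doublets were scored with Scrublet in scanpy 1.11.5, removed only as an alternative (score above 0.25). Counts were summed per mouse, and genes kept by filterByExpr were tested with edgeR 4.0.16 (R 4.3.3; quasi-likelihood test, TMM factors, Benjamini-Hochberg adjustment over all genes tested, threshold 0.05). Differences between classes were tested as an interaction of class and genotype, blocked by library. DESeq2 1.42.0, other scalings, filters, thresholds and each library left out were alternatives. Scripts were tested on simulated data.

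The members and the gene lists were chosen with earlier results of these data known. The study tested single nuclei; here the mouse was the replicate. Named genes were, with fewer than 5 past the threshold in a direction, the 8 of that direction with the smallest unadjusted p and a mean of at least 20 CPM, and, for differences between classes, the genes past the threshold. Leading genes had a mean of at least 50 CPM. Subclusters came from leiden clustering (leidenalg 0.10.2, resolution 0.5). Gene positions are from GENCODE on GRCm38, which matched 32158 of 32285 gene IDs. Depth per library sum ranged from 330475 to 884126 UMIs, and intervals cover counting error only. Values of some list members are not reported here.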

Additional observations from a re-analysis of the deposited data

Results flagged for a closer look

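The effect of genotype differed between Fn1 nuclei and CA1-rule nuclei of the same mice for 5 genes, by the class-by-genotype term of edgeR. Sgcd had a log2 fold change of −0.74 in Fn1 nuclei and 0.68 in CA1-rule nuclei (difference −1.44, edgeR adjusted p = 0.0349). Htr1f had 0.93 and −0.57 (difference 1.49, edgeR adjusted p = 0.0349). Zbtb20 had −1.42 in Fn1 nuclei (difference −1.67, edgeR adjusted p = 0.0392), and with doublets removed −0.71 in Fn1 nuclei and a difference of −0.96 that did not pass (edgeR adjusted p = 0.284). Gm30382 had 0.40 and −0.79 (difference 1.17, edgeR adjusted p = 0.0483), and Tmem132d had 0.66 and −0.69 (difference 1.32, edgeR adjusted p = 0.0483). All 5 lost significance without KI replicate 1, the library with 32 Fn1 nuclei, at differences of −1.13 (Sgcd), 1.16 (Htr1f), −1.21 (Zbtb20), 1.05 (Gm30382) and 1.52 (Tmem132d). Tmem132d also lost it without WT replicate 2 (1.03) and without KI replicate 2 (1.07), and Gm30382 without WT replicate 2 (1.14), without KI replicate 2 (1.34) and with doublets removed (1.09).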

How the results depend on the processing

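In Fn1 nuclei the count of genes past the threshold was 0 and became 41 with no low-count filter and 2 in subclusters 1 and 2 only, and it ranged from 4 to 100 with each library left out. With the replicate number as a block it was 52. The numbers share no stated origin. Deviations of same-numbered samples correlated at 0.0846 over 2 pairs, and the numbers were not taken to pair the mice. Fn1 shares did split by number, at 0.338% and 0.684% in WT and 0.255% and 0.596% in KI, as did subclusters 3 to 5. Whether same-numbered mice share an origin was not tested. Against CA1-rule nuclei the count of 5 became 9 with library totals, 30 with no low-count filter and 16 in subclusters 1 and 2 only, and ranged from 2 to 25 with each library left out. Against Rai14-Cwh43 nuclei the count of 0 became 11 with no low-count filter and ranged from 0 to 18. The log2 ratio of shares, −0.26, was 0.11 with an Fn1 threshold of 1 UMI and ranged from −1.003 to 0.33 with each library left out. The fold change of Cyfip2 took the other sign without WT replicate 2 (−0.01) and without KI replicate 2 (−0.12), and its highest value with a library left out was 0.29. Scaling by library totals moved the median of all genes to −0.08 and the split at an unadjusted p below 0.05 to 184 higher and 424 lower. Of 322 values of named genes under alternatives, 246 kept their direction and side of the threshold, 62 passed it, 12 no longer passed and 2 changed sign. The alternatives on subclusters 1 and 2 and without Malat1 were chosen after seeing the data. The causes were not tested. KI replicate 1 gave only 32 Fn1 nuclei, so genes of few UMIs rested there on small counts.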

Other observations

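Restricted to subclusters 1 and 2, an alternative chosen after seeing the data, 16 of 10094 genes differed in their genotype effect from CA1-rule nuclei, and the genes here were named after their values were seen. Besides Htr1f, Tmem132d, Gm30382 and Sgcd they included Myo16, an unconventional myosin (difference −2.78), and Pcdh15, a protocadherin (−1.39). Kcnip3, a calcium-binding partner of potassium channels (−1.23), was among them as well. Myo16 stood at 78.0, 87.7, 19.0 and 21.8 CPM, and at 95.6, 105, 194 and 163 CPM in CA1-rule nuclei. Pcdh15 overlapped between genotypes in these Fn1 nuclei (604, 441, 608 and 301 CPM), against 390, 577, 950 and 1093 CPM in CA1-rule nuclei. Kcnip3 stood at 211, 183, 85.6 and 137 CPM, and at 94.0, 114, 130 and 157 CPM in CA1-rule nuclei. The mix of subclusters 1 and 2 entered this fit too.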
